A study of Caenorhabditis elegans with 2 samples.

Results

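The genes unc-86, mec-3, unc-3, unc-30, unc-42, ttx-1, ttx-3, lim-4, lin-11 and unc-4 encode transcription factors that are known in Caenorhabditis elegans as terminal selectors or regulators of neuron identity. They are 10 of the 19973 protein-coding genes annotated on the worm chromosomes, and they were taken by name, with earlier results of these data known but with no measured value in the rule. At each gene, the sites bound by the zinc finger factor LSY-2 were described over the stretch from 5000 bp upstream of the 5′ end to the far end of the gene. LSY-2 binding had been mapped by chromatin immunoprecipitation and sequencing (ChIP-seq) in 1 group of 2 biological replicates, each made from whole L2 larvae of pooled sexes. All animals were of strain OP367, which has the allele unc-119(tm4063) on chromosome III and the integrated transgene wgIs367, a line that stably expresses LSY-2 fused to GFP-FLAG at its C terminus. The labels name lsy-2 as the antibody target and do not say what drives the transgene. ChIP-seq gives no expression values, so the cell types in the animals were not checked against markers, and a site bound in a few neurons and a site bound weakly in many cells cannot be told apart.

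A terminal selector is a transcription factor that switches on, often together with a partner, the genes that give a neuron class its working features, such as transmitter synthesis, receptors and channels. Many terminal selectors also act on their own promoters, which keeps them on for the life of the cell. Among these genes, unc-86 encodes a POU homeodomain factor, and mec-3, ttx-3, lim-4 and lin-11 encode LIM homeodomain factors. The factor encoded by unc-3 belongs to the COE family, and unc-30, unc-42, ttx-1 and unc-4 encode homeodomain factors of the Pitx, paired-like, Otx and paired-like kinds. LSY-2 itself is known from the sensory neuron pair ASE, where it acts in the choice between left and right identity.

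The authors' optimal list held 8 LSY-2 summits in these regions, and the sequences at 5 of them are shown to let the letters at these sites be compared with each other. They do not include the second strongest site, that of lin-11. Each runs from 50 bp before to 50 bp after the summit, 5′ to 3′ on the strand of the gene, and was read from the RefSeq genome of WBcel235, which is ce11. Capitals mark every match, on either strand and overlaps allowed, to the motif GAGAGA, the motif ACGCAG, the motif ACCGTA, the homeodomain core TAATCC, the core CCCNNGGG and the core TAATTA. In the windows shown only ACCGTA occurred, in the unc-42 intron. In ce11 coordinates the windows are chrX:14776468-14776568 (plus strand) in the first intron of unc-3, chrV:9769546-9769646 and chrV:9765806-9765906 (minus) upstream of and inside unc-42, and chrV:20068549-20068649 and chrV:20063649-20063749 (minus) upstream of and inside ttx-1. The last line gives the strongest site of lim-4, at chrX:3871807-3871907 (minus), which was not in the optimal list. This window is centred on the summit of replicate 2, and the replicate 1 summit of the site, 65 bp away, lies outside it. The windows of the ttx-1 intron and of lim-4 were added after their values were seen, and that of unc-30 is left out because it lies in a 5′ UTR.
unc-3 intron: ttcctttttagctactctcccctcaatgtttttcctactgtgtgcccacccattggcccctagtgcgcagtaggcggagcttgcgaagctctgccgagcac
unc-42 promoter: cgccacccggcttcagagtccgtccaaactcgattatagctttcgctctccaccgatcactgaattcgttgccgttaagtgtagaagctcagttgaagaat
unc-42 intron: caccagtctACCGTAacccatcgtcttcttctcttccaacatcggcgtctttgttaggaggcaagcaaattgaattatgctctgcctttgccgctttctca
ttx-1 distal: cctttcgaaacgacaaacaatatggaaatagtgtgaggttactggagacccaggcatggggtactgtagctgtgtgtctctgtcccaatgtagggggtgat
ttx-1 intron: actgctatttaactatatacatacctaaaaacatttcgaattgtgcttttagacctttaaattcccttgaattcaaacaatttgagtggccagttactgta
lim-4 intron, relaxed: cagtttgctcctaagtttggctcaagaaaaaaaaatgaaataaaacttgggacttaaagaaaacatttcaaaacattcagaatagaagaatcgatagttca

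The letters differed widely between these sites. Letters were examined at 7 of the 8 optimal summits, all but that of unc-86. Their GC content ran from 30.7% at the ttx-1 intron site to 58.4% at the unc-30 promoter site, against a median of 43.6% over the windows of all 6312 optimal summits, where the middle 80% lay between 33.7% and 54.5%. ACCGTA stood in 2 of the 7 windows, those of the unc-42 intron and of lin-11, whose sequence is not shown. Over all optimal windows the share was 6.88%, and outside the strongest 10% of peaks, where all 7 of these summits lay, it was 4.03%. GAGAGA, which 27.1% of all optimal windows held, was found in 1 of the 7, that of lin-11, where 2 overlapping copies lay 9 and 11 bp past the summit. ACGCAG (14.6% of all windows), TAATCC (2.47%), CCCNNGGG (0.998%) and TAATTA (2.34%) were in none of the 7. The last 3 were searched as core letters of Pitx, COE and homeodomain sites, and a missing match says only that the letters are not in these windows. The first 3 had been singled out by earlier results on these data.

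Of the 10 genes, 6 had an optimal LSY-2 summit somewhere in the region: unc-86, unc-3, unc-30, unc-42, ttx-1 and lin-11. Over all protein-coding genes the share was 36.6%, and among the 6611 genes whose regions were as long as these (7.63 to 15.5 kb) it was 44.9%. The exact Clopper-Pearson 95% interval of 6 of 10 runs from 26.2% to 87.8% and covers counting only, so the count cannot be set apart from either share. The regions of the 10 genes had a median length of 9.89 kb, against 7.03 kb over all genes. Per 10 kb of merged region there were 0.754 optimal summits at these genes and 0.646 over all genes. The remaining 4 genes, mec-3, ttx-3, lim-4 and unc-4, had no optimal summit. A summit counted for each gene whose region held it. The summit counted for unc-86 lay nearer to the 5′ end of the neighbour C30A5.16 (845 bp) than to that of unc-86 (1038 bp).

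**Figure D1:**
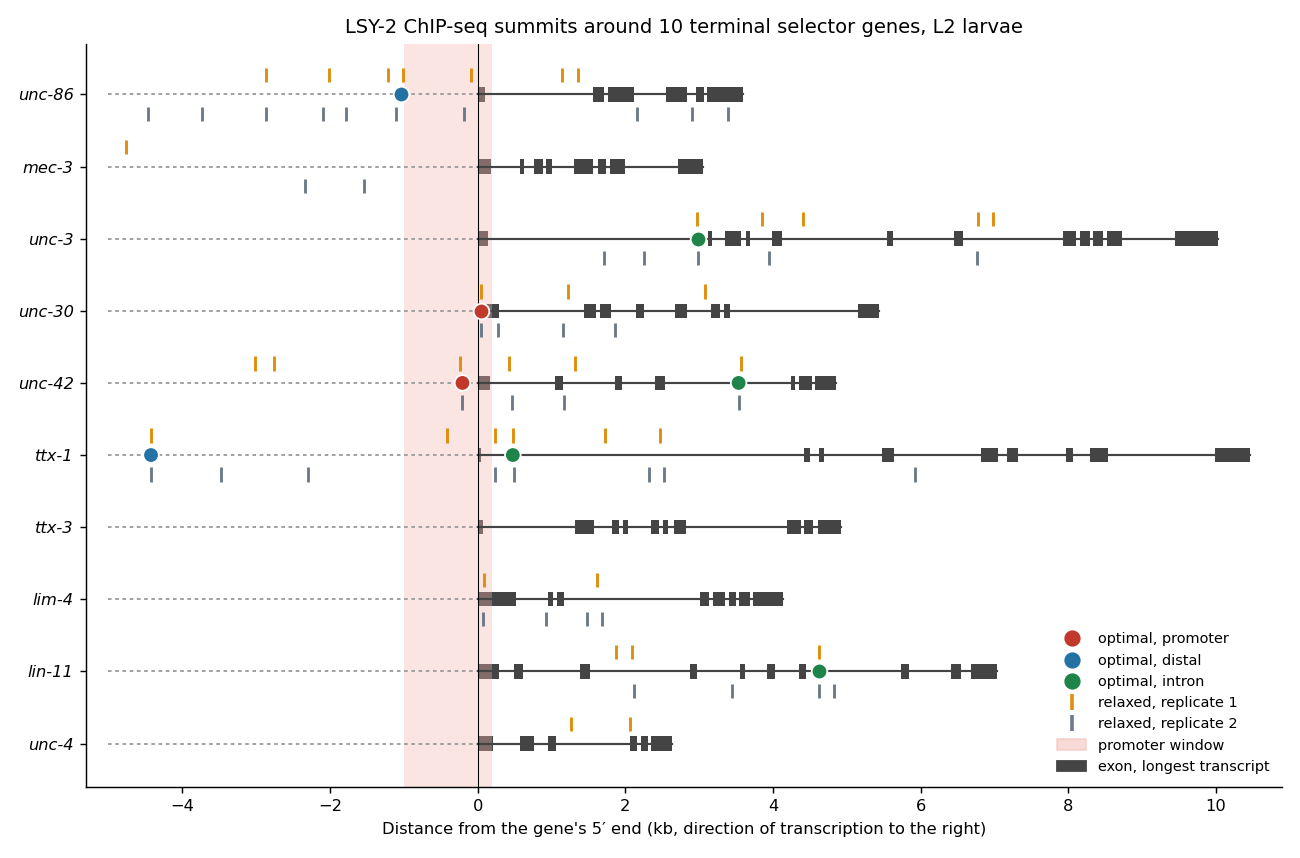
Each row is 1 gene drawn from 5 kb upstream of its 5′ end (x axis, distance in kb, transcription to the right) with the exons of its longest transcript as boxes; circles are optimal summits coloured by class, and ticks above and below the line are summits of the relaxed lists of replicates 1 and 2. The 8 optimal summits fall at 6 genes, with 4 in introns, and ttx-3 carries no tick in either replicate.

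Sites were put in 4 classes. A promoter site lay at most 1000 bp before or 200 bp past the 5′ end of its gene, a distal site further upstream, and an exon or intron site further inside the gene. Promoter sites were found at 2 of the 10 genes, unc-30 and unc-42, against 19.2% of all genes. Distal sites were found at 2 genes, unc-86 and ttx-1, against 21.8%. No optimal summit fell in the exon class, against 1.35% of all genes. The unc-30 summit lies in exon 1 but was counted as a promoter site, since that class came first. An exact interval for 0 of 10 reaches 30.8%. Intron sites were found at 4 genes, unc-3, unc-42, ttx-1 and lin-11, against 5.29% of all genes.

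The intron count has to be read with the size of the introns. These genes had a median of 3.51 kb of intron beyond the promoter window, and all genes had a median of 0.679 kb. Among the 6611 genes with regions of like length, 9.26% had an optimal intron summit, and among the 4574 genes with as much intron as these (1.64 to 8.76 kb) it was 12.6%. The exact 95% interval of 4 of 10 runs from 12.2% to 73.8%, so its lower end lies just under the last of these shares. Per 10 kb of intron there were 0.973 optimal summits at these genes and 0.482 over all genes, from 4 summits here. In these densities by class a summit counts once for each gene whose region holds it. The relaxed lists gave 5.11 and 3.38 summits per 10 kb of intron in replicate 1 (21 summits at these genes) and 5.84 and 3.39 in replicate 2 (24 summits). In promoters the optimal densities were 1.67 and 1.69 per 10 kb. The intron density was thus the higher at these genes in the optimal list and in each replicate, and the promoter density was near that of all genes. These lists are not separate evidence, since the optimal list was made from the replicates, and the relaxed lists also hold background. Of the 4 optimal intron summits, that of unc-42 was a promoter site by the 5′ ends of all transcripts, which left 3. That of ttx-1 ranked 8849 in replicate 2, outside its 6312 highest scores. The difference in intron density was not tested, because the 10 genes were chosen with results of these data known.

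**Figure D2:**
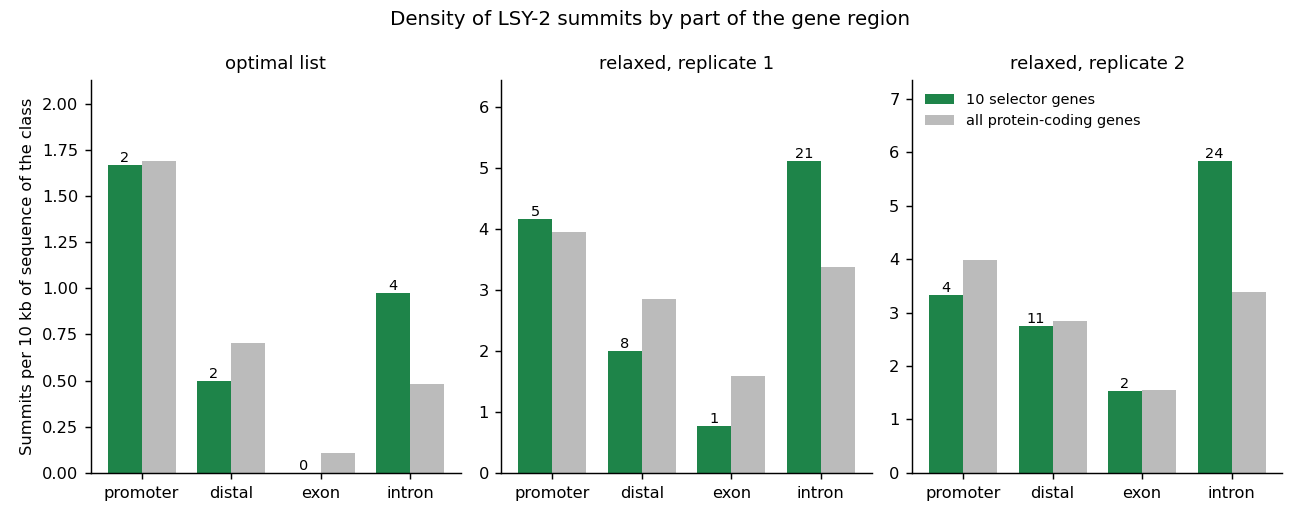
Bars give LSY-2 summits per 10 kb of promoter, distal, exon and intron sequence for the 10 selector genes (green) and for all protein-coding genes (grey), in the optimal list and in the relaxed list of each replicate; numbers on the green bars are counts of summits, and the 3 y axes differ in range. The intron bar is higher for the selector genes in each panel, at 0.973 against 0.482 in the optimal list.

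The scores of these peaks were mostly low within the optimal list. The score is the value that the authors' peak caller gave a peak, on a scale that the files do not state, and it was used only to rank peaks within a list. The 8 peaks had scores from 61.7 to 285 with a median of 93.5, while all 6312 optimal peaks ran from 58.0 to 20472 with a median of 123. The strongest, in the fourth intron of unc-42, ranked 1225, and the weakest, in the first intron of ttx-1, ranked 5975. Neither promoter peak reached the median over all promoter peaks of the list, since their scores were 74.8 and 85.4 and that median was 193. The 4 intron peaks had a median score of 159, against 98.4 over all intron peaks, and the 2 distal ones 104, against 136. In these medians over all genes a peak in the regions of several genes counts for each of them. At these genes the median was thus highest for the 4 intron peaks, and it was 80.1 for the 2 promoter peaks. Over all genes promoter peaks had the highest median of the 4 classes. The strongest intron peak, that of unc-42, counts as a promoter peak by the 5′ ends of all transcripts, so the class medians here depend on that choice.

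**Figure D3:**
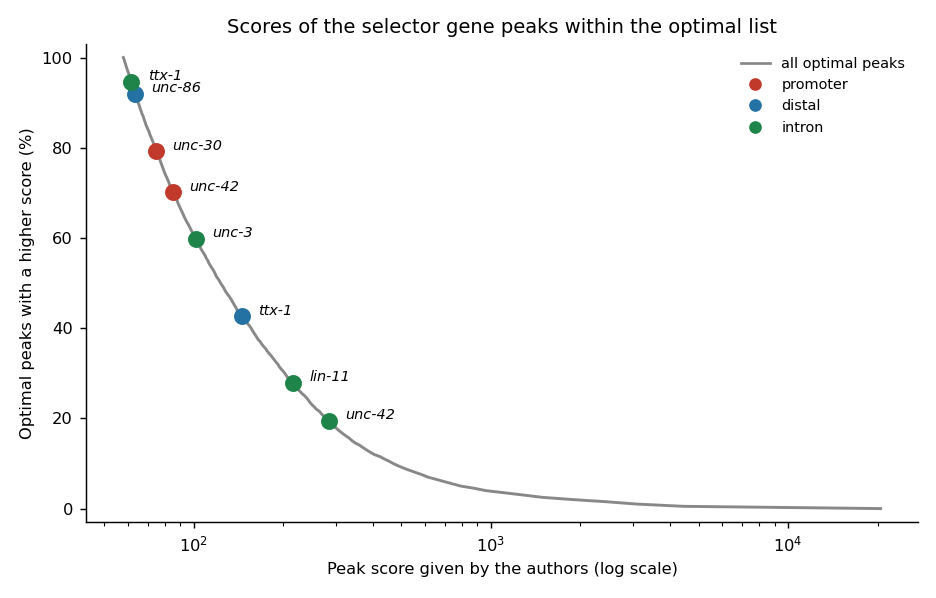
The grey line gives, for each score (x axis, log scale), the percentage of all 6312 optimal peaks with a higher score (y axis), and the points are the 8 peaks at selector genes, coloured by class. The points run from the unc-42 intron peak, with 19.4% of peaks above it, to the ttx-1 intron peak, with 94.6% above it.

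Each of the 8 optimal summits had a summit within 200 bp in the relaxed list of each replicate. A stricter match used the 6312 highest scores of each replicate, which end at a score of 34.7 in replicate 1 and 29.2 in replicate 2. By this measure 6 of the 8 were found in both replicates (75%, against 79.3% of all optimal summits), and the upstream site of unc-86 and the intron site of ttx-1 were found in 1 replicate each. Since the authors made the optimal list out of these replicates, this support is partly built in. With 1 library per replicate the scores below are single values.

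The POU gene unc-86 (WBGene00006818, chromosome III, 8212740 to 8216336, minus strand) acts in touch receptor, serotonergic and many other neurons. Its optimal summit lay 1038 bp upstream of the 5′ end, which is 38 bp beyond the promoter window. The peak had a score of 63.4 and ranked 5811, near the lower end of the list. In replicate 1 the nearest summit had a score of 25.5 and ranked 8589, and in replicate 2 it had a score of 36.3 and ranked 5072. The site was thus placed differently by the replicates, and their summits were 92 bp apart. The 5′ end of the neighbouring protein-coding gene C30A5.16 lay 845 bp from the optimal summit, closer than that of unc-86, so the site falls in the promoter window of the neighbour. A second site nearer to unc-86, 85 bp upstream in replicate 1 and 186 bp upstream in replicate 2, had scores of 34.8 and 25.1 and ranks of 6285 and 7386. Its score in the pooled relaxed list was 57.2, rank 6400, just under the lowest optimal score of 58.0. The relaxed lists held 7 summits in the unc-86 region in replicate 1 and 10 in replicate 2. Of the 4 sites seen in both, the 2 furthest upstream lay inside C30A5.16 and ranked 18160 and 29075 in replicate 1.

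The LIM homeodomain genes were unlike each other. The strongest site was in lin-11 (WBGene00003000, chromosome I, 10248288 to 10255327, plus strand), which acts in interneurons and motor neurons and also in the vulva. Its optimal summit lay 4621 bp inside the gene, in intron 7 of 1284 bp, 172 bp past the start of that intron. The peak score was 216 and the rank 1753. In replicate 1 the summit was at the same base with a score of 111 and rank 1944, and in replicate 2 it was 1 bp away with a score of 104 and rank 1652. The site was thus strong in both replicates and placed almost to the base. No promoter site of lin-11 was found in the optimal list or in either relaxed list, and the nearest upstream protein-coding gene was 14901 bp away. The nearest other protein-coding 5′ end to the optimal summit, of ZC247.2, was 9341 bp away. A weaker intron site at 2094 and 2121 bp had scores of 12.3 and 25.1, ranks 17433 and 7415.

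The gene lim-4 (WBGene00002987, chromosome X, 3869404 to 3873545, minus strand), which acts in olfactory and head motor neurons, had no optimal summit but a site seen in both replicates inside the gene. It lay 1623 bp from the 5′ end in replicate 1, with a score of 22.2 and rank 9927, and 1688 bp in replicate 2, with a score of 28.0 and rank 6607. The nearest pooled summit scored 51.7 and ranked 7025, outside the optimal list. A site at 93 and 71 bp, within the promoter window, was weaker, with scores of 14.7 and 11.7. The nearest optimal summit was 12081 bp downstream of the 5′ end, past the end of lim-4, and the protein-coding gene nearest to it was ceh-18, a POU gene.

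The gene mec-3 (WBGene00003167, chromosome IV, 10458816 to 10461867, minus strand) works with unc-86 in the touch receptor neurons. It had no optimal summit and no site that the replicates shared. Replicate 1 held 1 summit, 4768 bp upstream with a score of 35.4 and rank 6179, which lay inside the neighbouring gene ugt-43. Replicate 2 held summits 1540 and 2335 bp upstream, with scores of 23.9 and 6.21. The replicates therefore pointed to different places, and none was in the mec-3 promoter or gene body. The nearest optimal summit was 20041 bp upstream, 64 bp from the 5′ end of egl-21, which encodes a neuropeptide-processing carboxypeptidase.

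The gene ttx-3 (WBGene00006654, chromosome X, 11764456 to 11769378, minus strand), needed for the AIY interneurons, had no optimal summit. Neither of the relaxed lists, which hold 30000 summits each, had a summit in its region of 9.92 kb. Of all protein-coding genes 41.3% likewise had no relaxed summit in either replicate. The median region over all protein-coding genes, with or without such a summit, was shorter than that of ttx-3, at 7.03 kb. The share among genes with regions as long as that of ttx-3 was not taken. The nearest optimal summit was 28782 bp upstream. The files hold only listed peaks and no read counts, so no limit on weaker binding can be given.

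The COE gene unc-3 (WBGene00006743, chromosome X, 14773538 to 14783568, plus strand) specifies cholinergic motor neurons. Its optimal summit lay 2980 bp inside the gene, in the first intron of 2979 bp and close to its far end, at 95.4% of the intron's length. The peak had a score of 102 and ranked 3770. In replicate 1 the summit was 5 bp away with a score of 60.1 and rank 3674, and in replicate 2 it was 6 bp away with a score of 41.7 and rank 4436. The replicates therefore gave the same place within 11 bp and near ranks. Another 2 sites were shared by the replicates further inside the gene, near 3903 and 6772 bp, with scores of 15.0 or lower. The nearest other protein-coding 5′ end, of Y16B4A.2, was 4667 bp from the optimal summit. No summit lay upstream of unc-3 in the optimal list or in either relaxed list, although 5 relaxed summits lay inside the gene in each replicate.

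The Pitx gene unc-30 (WBGene00006766, chromosome IV, 13118977 to 13124406, plus strand) specifies the GABAergic motor neurons of the ventral cord. Its optimal summit lay 51 bp past the 5′ end, in the 5′ UTR within exon 1 of the longest transcript. The peak had a score of 74.8 and ranked 5003. In replicate 1 the summit was 1 bp away with a score of 37.7 and rank 5832, and in replicate 2 it was 2 bp away with a score of 37.8 and rank 4895. The place was thus nearly identical in both replicates although the score was low. The nearest other protein-coding 5′ end, that of best-2, was 5946 bp away, so the site was not shared with a divergent promoter. A second shared site, near 1190 bp, was weak, with scores of 17.3 and 5.83.

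The paired-like gene unc-42 (WBGene00006778, chromosome V, 9764534 to 9769391, minus strand) acts in command interneurons and in motor and sensory neurons. It had 2 optimal summits. The one in the promoter lay 205 bp upstream with a score of 85.4 and rank 4427. Its scores were 40.9 in replicate 1 (rank 5391) and 48.4 in replicate 2 (rank 3826), and the summits lay 34 and 6 bp from the optimal one. The nearest other protein-coding 5′ end to both summits is that of F46B6.2, 2689 bp from this one and 6429 bp from the other. The ncRNA gene F46B6.18 is annotated 52 bp from this summit. The other summit lay 3535 bp inside the gene, in intron 4 of 1706 bp, with a score of 285 and rank 1225. Its scores were 153 in replicate 1 (rank 1281) and 138 in replicate 2 (rank 1117). The intron site ranked above the promoter site of the same gene in each replicate, and it was the strongest of all the sites at these 10 genes. The optimal summit lay 866 bp upstream of the 5′ end of a short unc-42 transcript that starts 4401 bp into the gene, so by the 5′ ends of all transcripts it is a promoter site. A further site, 425 and 460 bp inside the gene, ranked 6806 and 7260, and its pooled score of 57.0 (rank 6419) was just under the optimal list. Near 1240 bp another shared site, with scores of 20.1 and 7.27, lay 399 bp upstream of a transcript start at 1639 bp.

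The Otx gene ttx-1 (WBGene00006652, chromosome V, 20053719 to 20064176, minus strand), needed for the thermosensory neuron AFD, also had 2 optimal summits. The distal one lay 4423 bp upstream with a score of 145 and rank 2690, and its peak was 165 bp wide, the narrowest of the 8. Its scores were 89.5 in replicate 1 (rank 2454) and 54.0 in replicate 2 (rank 3441), each 5 bp from the optimal summit. No other protein-coding gene lies within 11739 bp upstream of ttx-1, and the next 5′ end, of fre-1, was 19136 bp from the summit. The other summit lay 477 bp inside the gene, in the first intron of 4372 bp, with a score of 61.7 and rank 5975. Its scores were 36.2 in replicate 1 (rank 6051) and 21.0 in replicate 2 (rank 8849), so only replicate 1 placed it among its 6312 strongest. The nearest other protein-coding 5′ end, of srh-233, was 14334 bp from it. The distal site was the stronger in both replicates. A further site, 2469 and 2527 bp inside the gene, had scores of 28.1 and 26.5 and ranks of 7768 and 6988. It lay 258 bp upstream of the start of a shorter ttx-1 transcript.

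The paired-like gene unc-4 (WBGene00006744, chromosome II, 9897751 to 9900376, minus strand) sets the synaptic inputs of VA motor neurons. It had no optimal summit and none in the relaxed list of replicate 2. Replicate 1 held 2 summits inside the gene, 1271 bp in with a score of 26.7 and rank 8197, and 2068 bp in with a score of 11.6 and rank 18368. The replicates therefore shared no site at unc-4. The nearest optimal summit was 7765 bp downstream of the 5′ end, 167 bp from the 5′ end of C08H9.16, and at rank 120 it was a far stronger peak than any at these genes.

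Across the 10 regions, the relaxed list of replicate 1 held 35 summits and that of replicate 2 held 41. They formed 21 sites, each a pair of summits that were each other's nearest in the other replicate and lay within 200 bp, and these fell at 7 genes. Of all protein-coding genes, whose regions had a shorter median length, 49.1% had such a site. Per 10 kb of merged region there were 1.98 such sites at these genes and 1.72 over all genes. The 21 sites comprised the 8 at optimal summits and 13 others, of which 9 were in introns, 2 in promoters and 2 in distal sequence. Among the 13, there were 4 that ranked within 10000 in each replicate, at unc-86, unc-42, ttx-1 and lim-4. The remaining 14 relaxed summits of replicate 1 and 20 of replicate 2 had no such partner. Relaxed lists are made to hold background as well as binding sites, and a shared weak site may be either.

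**Figure D4:**
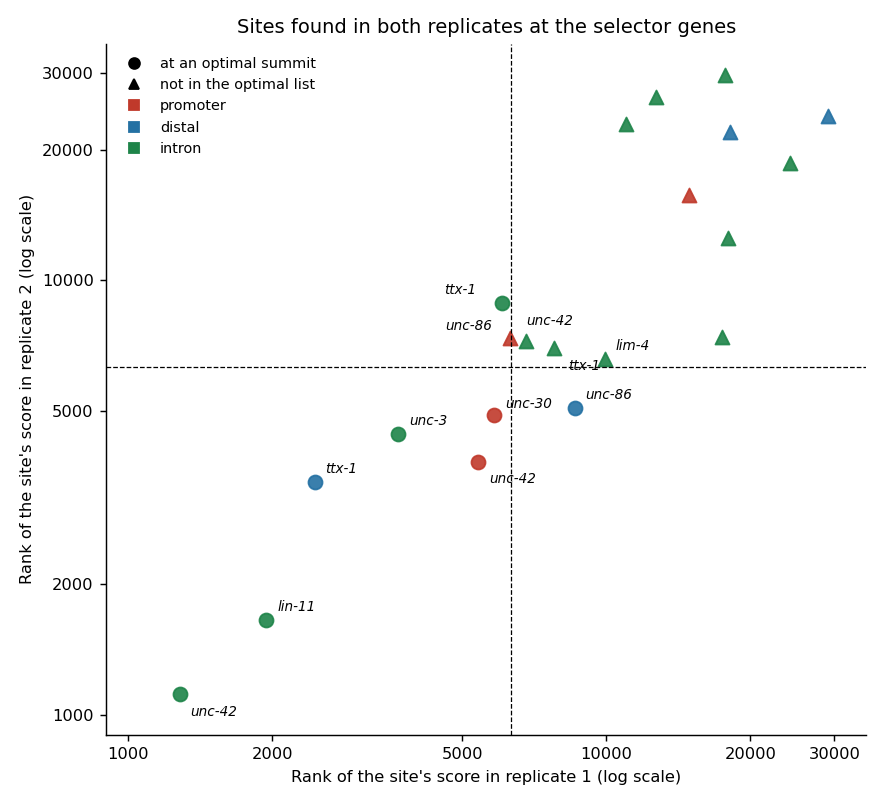
Each point is 1 of the 21 sites found in both replicates, placed by the rank of its score in replicate 1 (x axis) and replicate 2 (y axis), both on log scales; circles are sites at optimal summits, triangles are other sites, colours give the class, and dashed lines mark rank 6312. The intron sites of unc-42 and lin-11 rank highest in both, and the 4 labelled triangles, at unc-86, unc-42, ttx-1 and lim-4, rank from 6285 to 9927 in replicate 1 and from 6607 to 7386 in replicate 2.

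Other regulators of neuron identity were read in the same way. Of 23 such genes, which comprised other LIM and POU genes and other terminal selectors, 2 had an optimal promoter summit (19.2% over all genes), 6 a distal one (21.8%) and 5 an intron one (5.29%), and 10 had any (36.6%). These counts are not adjusted for the length of the regions, nor the intron count for the length of the introns. The promoter sites were at ceh-6, a POU gene, with a score of 251 and rank 1449, and at the Hox gene egl-5, with a score of 78.6 and rank 4776. Of 3 further LIM genes, lim-7 had an intron site with a score of 118 and ceh-14 and lim-6 had none. The ASE selector che-1 was among the genes with no optimal summit.

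Genes that act in the neuron classes these factors specify were also examined for LSY-2 sites. Of 32 such genes, 12 had an optimal summit in the region (36.6% over all genes) and 4 had one in the promoter (19.2% over all genes). Promoter summits were at the tubulin gene mec-12 of the touch neurons, with a score of 140, at the GABA synthesis gene unc-25 (74.4), at the GABA transporter gene snf-11 (75.4) and at the Groucho corepressor gene unc-37 (242), which encodes a partner of UNC-4 and not an effector under its control. Of the 8 touch neuron genes examined, only 2 had an optimal summit in the region, mec-12 and mec-10, and mec-10 had 2 distal ones. Those with none included mec-4, mec-2 and the tubulin gene mec-7. The genes unc-17 and cha-1, which start from the same place and serve acetylcholine transport and synthesis, shared 1 distal site with a score of 106. Of the 3 AFD guanylyl cyclase genes, gcy-8 had a distal site with a score of 192, and gcy-18 and gcy-23 had none.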

How the data were processed

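LSY-2 ChIP-seq peaks of 2 replicates in 1 group were used as deposited. Relaxed peaks had been called by the authors on each replicate and on both pooled (30000 peaks per list), and an optimal list made with the irreproducible discovery rate procedure, per the labels' file records. Neither labels nor files name the peak caller, aligner or threshold. The score of each peak is the authors' deposited value. The deposited −log10 q-value was 4.26 for 100% of optimal peaks, so it ranked nothing. No read counts were used, so depth is unknown.

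Summits (peak start plus offset) were placed on ce11, which is WBcel235, in Ensembl annotation release 115; sequences came from the RefSeq genome of the same assembly. All peak ends lay within its chromosomes. Summits were assigned in the order promoter, distal, exon (any protein-coding transcript) and intron. A summit counted for each gene whose region held it. Intervals are exact 95% Clopper-Pearson intervals and cover counting only. Python 3.11.15, pandas 2.3.3 and scipy 1.17.1 were used, and the assignment was tested on simulated summits.

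The genes, lists, motifs and classes were chosen with earlier results of these data known, and no test was run. Named were all 10 genes, the gene with the nearest other 5′ end to each of their optimal summits, and in each comparison list the genes with a promoter summit, up to 3 per list; egl-21, ugt-43, C08H9.16, F46B6.18, ceh-18, lim-7, ceh-14, lim-6, che-1, mec-4, mec-2, mec-7, mec-10, unc-17, cha-1, gcy-8, gcy-18 and gcy-23 were named after their values were seen. Alternatives covered the windows, the 5′ ends, the peak lists, each replicate alone and the match distance. The ce10 lists and the control reads were not analysed here, and the sequence at the unc-86 summit is not reported here.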

Additional observations from a re-analysis of the deposited data

How the results depend on the processing

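Of 33 alternative values for 7 results, 27 stayed within 1.5 times the reported value. With the strongest 50% of the optimal list, the summits in the regions fell from 8 to 3, the genes with a summit from 6 to 3, those with a promoter summit from 2 to 0 and the intron summits from 4 to 2, and the median score of those left was 216; this setting removes low scores by construction. With the promoter taken from 2000 bp upstream to 500 bp downstream, 4 genes had a promoter summit, since the sites of unc-86 and ttx-1 then counted. The peaks of each replicate alone, as many as the optimal list holds, gave 7 to 9 summits, 6 to 7 genes, 2 to 3 genes with a promoter summit and 3 to 4 intron summits. Replicate 1 alone added mec-3, with its site inside ugt-43, and took unc-86 by its site 85 bp upstream; replicate 2 alone lost the intron site of ttx-1. Of the alternatives, 4 were chosen after seeing the data: the strongest 50% and the 5′ ends of all transcripts for intron summits, which gave 3 because the unc-42 site became a promoter site, and the match distances for the relaxed sites. No paired analysis was possible because there is 1 group. The files used here give no read depth, so a gene without a listed peak is not shown to lack binding.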

Other observations

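The heptamer TACTGTA, on either strand, was noticed in the windows of the unc-30 promoter site and of both ttx-1 sites after their letters were read, so it stood in 3 of the 7 windows examined. Over all 6312 optimal windows the share was 3.25%, and over windows of the same size 300 bp to either side of the summits it was 2.99%. The share at summits over the whole list was thus close to that in the flanks, and 2 of the 3 windows belong to 1 gene.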
